A study of Mus musculus with 6 samples.

Results

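Keratins and markers of bile duct and liver progenitor cells were followed in whole mouse liver after an acetaminophen overdose. The set holds 9 genes of 28476 in the deposited table, taken by symbol: the keratins Krt7, Krt8, Krt18, Krt19 and Krt23, the transcription factor gene Sox9, the surface protein genes Epcam and Cd24a, and Spp1. The samples were 3 livers labelled Nedd4 HepKO and 3 livers labelled Flox, all from C57BL/6 mice. Every animal of both groups had been fasted overnight and given 300 mg/kg acetaminophen (APAP) into the peritoneum, and livers were taken at 24 h. NEDD4-1, the product of Nedd4, is a ubiquitin ligase, and the series title ties it to APAP injury. The labels give neither the age nor the sex of the mice, nor the Cre or promoter behind the HepKO genotype. Since both genotypes received APAP, each difference is between treated livers. Nothing in the labels ties a library to its own animal, and the p-values therefore cover the spread among libraries, which may be technical.

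Keratins are the intermediate filament proteins of epithelial cells, and each filament pairs a type I with a type II keratin. Adult hepatocytes make KRT8 (type II) and KRT18 (type I), which help the cell withstand mechanical and toxic stress, and injured hepatocytes are known to raise both. Cholangiocytes, the cells that line bile ducts, add KRT7 (type II) and KRT19 (type I). After severe injury, small duct-like cells that carry KRT19, SOX9, EPCAM, CD24 and osteopontin (the product of Spp1) can appear around portal tracts, and hepatocytes can also switch on SOX9.

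Values are FPKM, fragment counts scaled to gene length and library size, as the authors deposited them. Libraries summed to 458487 to 496303 FPKM in HepKO and 456176 to 461723 FPKM in Flox livers, and their read depth is unknown. Nedd4 averaged 0.616 ± 0.051 FPKM in HepKO and 2.33 ± 0.22 FPKM in Flox livers (SD, n = 3 each), lower in every HepKO library. Mitochondrial genes took 24.6%, 18.3% and 17.2% of the FPKM in HepKO replicates 1, 2 and 3 and 16.7% to 18.1% in Flox livers, so HepKO replicate 1 stood apart. Markers of other cells differed too. Neutrophil markers summed to 138 to 162 FPKM in HepKO and 10.6 to 20.5 FPKM in Flox livers, with 9 of 9 tested genes higher. Of these, Cxcr2, Mmp8, Mmp9, Ngp and Il1r2 reached the mean of 0.5 FPKM needed for testing only through HepKO livers. Erythroid markers summed to 551 to 974 FPKM in HepKO and 132 to 234 FPKM in Flox livers, with 4 of 5 tested genes higher. Of all tested genes, 9.33% were higher in HepKO livers.

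The promoters of Krt8, Krt18 and Krt23 are printed because Krt8 and Krt18 are the abundant partner keratins of the hepatocyte and Krt23 had the largest fold change of the set. The sequences are RefSeq's on GRCm38.p6, each running from 250 bases before to 50 bases after the annotated start of the gene, on the gene's own strand. The windows are chr15:102004293-102004592 on the minus strand for Krt8, chr15:102027966-102028265 on the plus strand for Krt18 and chr11:99493071-99493370 on the minus strand for Krt23. Capitals mark matches, on either strand, to short motif letters that were searched for.
Krt8: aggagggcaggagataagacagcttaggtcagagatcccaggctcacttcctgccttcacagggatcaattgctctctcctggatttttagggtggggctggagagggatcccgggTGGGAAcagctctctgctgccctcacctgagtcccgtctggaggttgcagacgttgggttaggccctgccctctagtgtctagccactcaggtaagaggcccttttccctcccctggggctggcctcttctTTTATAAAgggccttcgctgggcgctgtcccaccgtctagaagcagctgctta
Krt18: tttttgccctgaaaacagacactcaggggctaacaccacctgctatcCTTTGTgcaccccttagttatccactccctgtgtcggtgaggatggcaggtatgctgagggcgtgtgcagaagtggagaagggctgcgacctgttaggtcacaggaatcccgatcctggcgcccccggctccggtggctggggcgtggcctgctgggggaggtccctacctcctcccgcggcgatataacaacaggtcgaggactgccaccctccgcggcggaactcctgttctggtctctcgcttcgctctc
Krt23: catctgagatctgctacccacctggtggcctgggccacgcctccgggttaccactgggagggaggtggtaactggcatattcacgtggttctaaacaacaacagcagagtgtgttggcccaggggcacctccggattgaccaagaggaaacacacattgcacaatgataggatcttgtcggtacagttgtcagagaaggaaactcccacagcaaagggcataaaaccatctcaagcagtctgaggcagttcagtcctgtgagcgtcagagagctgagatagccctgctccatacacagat

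The motifs searched, with the share of the 32851 promoters of the same table and length that hold each, were TGANTCA for AP-1 (7.81%), GGAATG for TEAD factors (14.7%), GGGCGG for SP and KLF factors (35.7%), TGGGAA for RBPJ (25.6%), GGGACTTTC for NF-kB (0.353%), ACAAAG for SOX factors (18.7%) and TATAAA for the TATA box (13.6%). The Krt8 window held 1 RBPJ match and TATA box letters on both strands, which overlap each other. The Krt18 window held 1 SOX match. The Krt23 window held none of the 7 motifs. Promoters of Krt7, Epcam and Spp1 were also in the table, and none of the 7 windows of the 6 matched genes held the AP-1, TEAD or NF-kB letters. These are matches of letters in a short window and show no binding. No promoter was printed for Krt19, Sox9 and Cd24a.

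Of the 9 genes, 8 reached a mean of 0.5 FPKM over the 6 libraries and were tested, and Krt7 did not. Krt8, Krt18, Krt23, Sox9, Cd24a and Spp1 were higher in HepKO livers, 0 were lower (also 0 at an unadjusted p under 0.05), and Krt19 and Epcam did not pass (limma on log2(FPKM + 1), Benjamini-Hochberg adjusted over 12712 genes, threshold 0.05). Over all tested genes, 20.3% were called, 9.33% higher and 11% lower in HepKO livers. The median log2 fold change was 1.19 over the 8 tested genes and -0.06 over all tested genes. The 2 groups did not overlap for the 6 called genes, with HepKO above Flox. Among all tested genes 42.4% did not overlap, 17.2% with HepKO above and 25.2% with HepKO below. The genes most restricted to bile ducts (Krt7, Krt19, Epcam) were at or under 1.63 FPKM in every library.

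**Figure D1:**
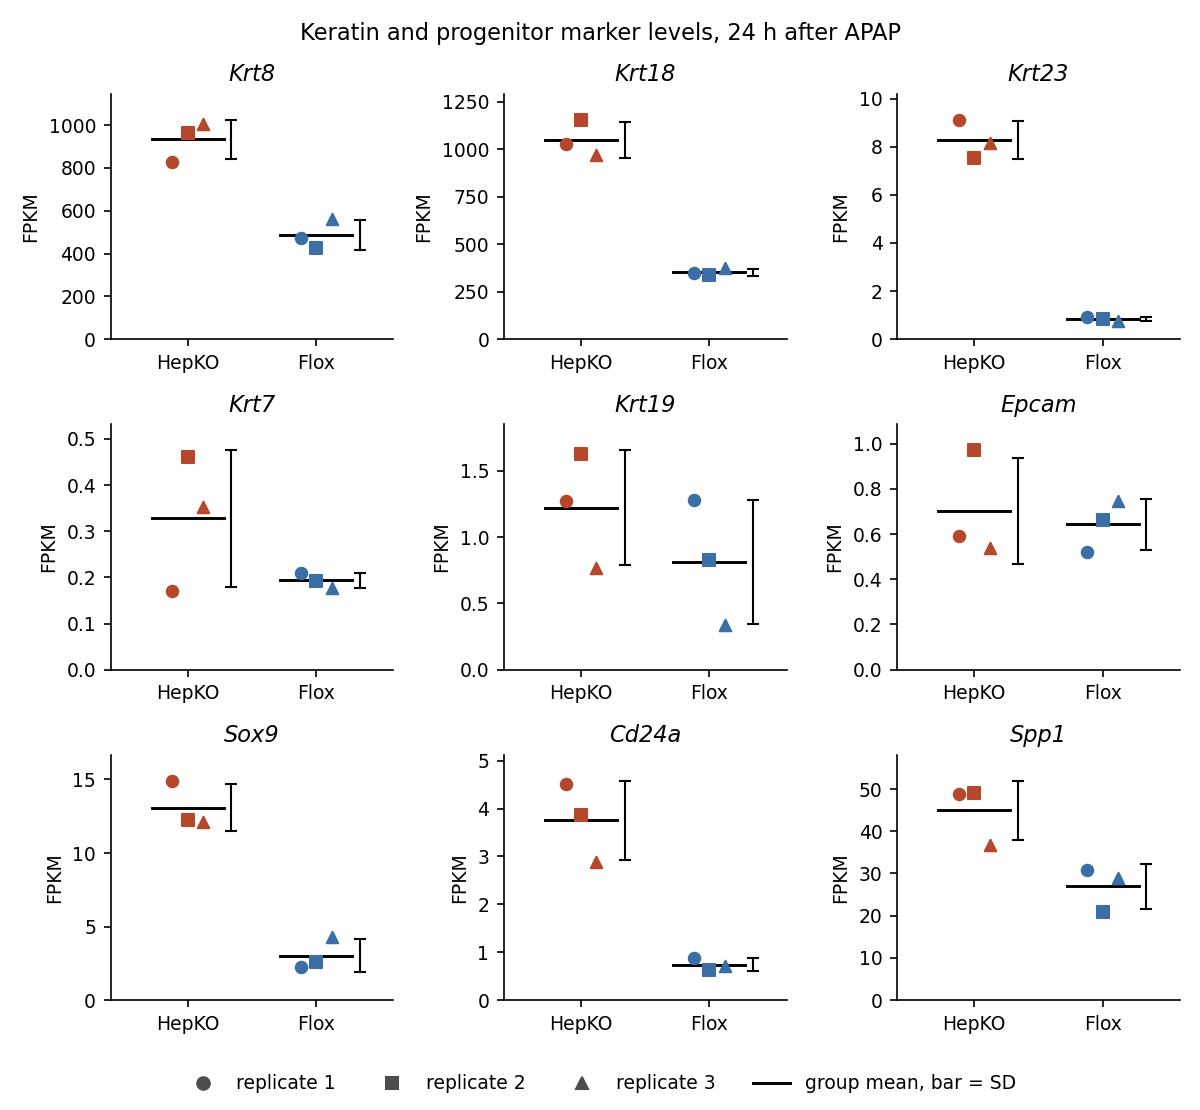
FPKM (vertical axes, linear, from 0) of the 9 genes in each library, with HepKO on the left and Flox on the right. Symbols are replicates, horizontal lines are group means and bars are SD (n = 3). Krt8, Krt18, Krt23, Sox9, Cd24a and Spp1 do not overlap between genotypes, while Krt7, Krt19 and Epcam do.

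Krt18, the type I keratin of hepatocytes (ENSMUSG00000023043, chromosome 15, 102028180 to 102032027), had 1027, 1156 and 969.7 FPKM in HepKO livers, against 346, 339 and 372 FPKM in Flox livers. The groups lay far apart relative to the spread within each. The means were 1051 ± 95.2 FPKM in HepKO and 353 ± 17.6 FPKM in Flox livers (SD, n = 3 each), a 2.98-fold difference (log2 fold change 1.57, SE 0.11, limma adjusted p = 0.00057). By level, Krt18 ranked between 63 and 67 among all genes in HepKO libraries and between 134 and 146 in Flox libraries.

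Krt8, its type II partner (ENSMUSG00000049382, chromosome 15, 101996698 to 102004482), had 829, 965 and 1004 FPKM in HepKO livers, against 472, 426 and 562 FPKM in Flox livers. The groups did not overlap. The means were 933 ± 91.7 FPKM in HepKO and 487 ± 68.9 FPKM in Flox livers (SD, n = 3 each), a 1.92-fold difference (log2 fold change 0.94, SE 0.14, limma adjusted p = 0.0059). A processed copy, Krt8-ps on chromosome 7, was listed at 5.58 ± 1.79 FPKM in HepKO and 2.30 ± 0.31 FPKM in Flox livers (SD, n = 3 each). Its level was 0.0060 of that of Krt8 in HepKO and 0.0047 in Flox livers, as ratios of group means. How reads that fit both copies were counted is not given, so their split is uncertain. This copy was picked after its values were seen.

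Both partner genes lie on chromosome 15, transcribed away from each other with 23697 bases between them, and their increases were unequal. The ratio of Krt8 to Krt18 FPKM was 0.807, 0.835 and 1.04 in HepKO livers, against 1.36, 1.26 and 1.51 in Flox livers. All 3 HepKO ratios were below all 3 Flox ratios. Krt8 exceeded Krt18 in 1 HepKO liver (replicate 3) and in every Flox liver. The mean ratio was 0.892 ± 0.124 in HepKO and 1.38 ± 0.13 in Flox livers (SD, n = 3 each), described here with no test. A ratio within a library does not depend on how libraries were scaled.

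**Figure D2:**
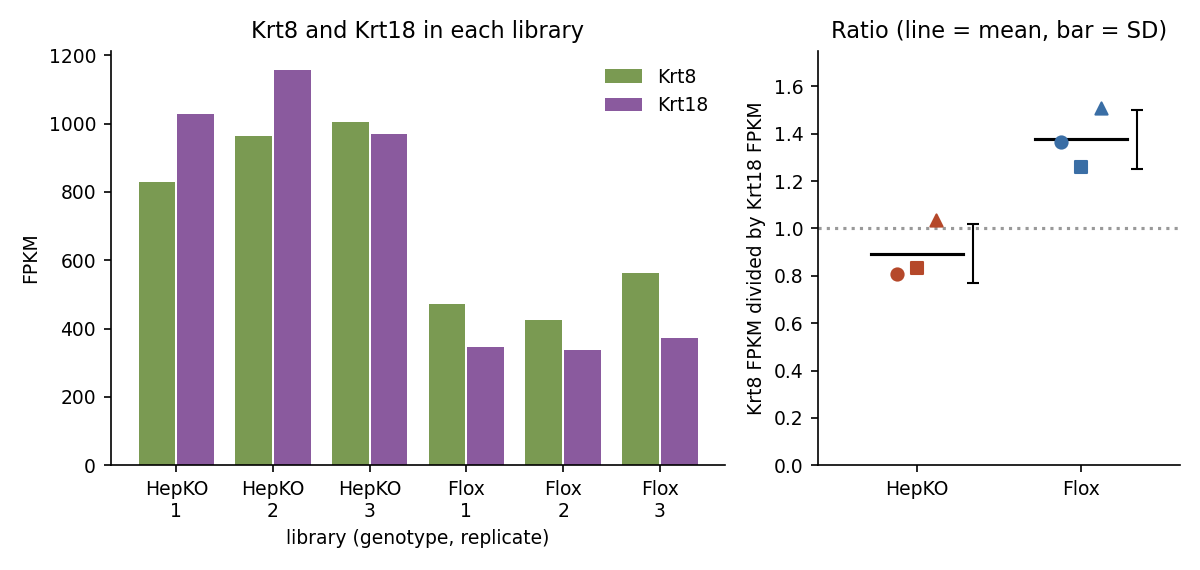
Left, FPKM of Krt8 and Krt18 (bars from 0) in each of the 6 libraries. Right, Krt8 FPKM divided by Krt18 FPKM in HepKO and Flox livers, with the mean as a line, the SD as a bar and a dotted line at 1. The HepKO ratios, 0.807 to 1.04, lie below the Flox ratios, 1.26 to 1.51.

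Krt23, a type I keratin described as a marker of ductular reactions in mouse and human liver (ENSMUSG00000006777, chromosome 11, 99477974 to 99493137), had 9.12, 7.54 and 8.16 FPKM in HepKO livers, against 0.921, 0.832 and 0.753 FPKM in Flox livers. The replicates of each genotype lay close together, far from those of the other genotype. The means were 8.27 ± 0.80 FPKM in HepKO and 0.835 ± 0.084 FPKM in Flox livers (SD, n = 3 each), a 9.91-fold difference (log2 fold change 2.33, SE 0.11, limma adjusted p = 0.00026). The log2 scale with a pseudocount of 1 understates this, since Flox levels were below 1 FPKM, and the fold was 9.40 to 10.4 when any library was left out. Divided by Krt18 within a library, Krt23 averaged 0.0079 ± 0.0013 in HepKO and 0.0024 ± 0.00033 in Flox livers (SD, n = 3 each), and the groups did not overlap.

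The bile duct keratins did not show this pattern. Krt19 (ENSMUSG00000020911, chromosome 11, 100140810 to 100146120) had 1.27, 1.63 and 0.766 FPKM in HepKO livers, against 1.28, 0.825 and 0.340 FPKM in Flox livers. The groups overlapped, and both genotypes held a library above 1 FPKM and one below it. The means were 1.22 ± 0.43 FPKM in HepKO and 0.814 ± 0.468 FPKM in Flox livers (SD, n = 3 each). The difference of 0.31 on the log2 scale (limma 95% interval -0.25 to 0.86) was not called (limma adjusted p = 0.39). The ratio of group means was 1.16 without Flox replicate 3 and 2.10 without Flox replicate 1.

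Krt7 (ENSMUSG00000023039, chromosome 15, 101411043 to 101430313) had 0.169, 0.462 and 0.352 FPKM in HepKO livers, against 0.210, 0.193 and 0.177 FPKM in Flox livers. HepKO replicate 1 was below all Flox libraries and the other HepKO livers were above them. At this level, a mean of 0.261 FPKM over the 6 libraries, it was left out of the test. Without the filter on low values its log2 fold change was 0.15 and did not pass (limma adjusted p = 0.41).

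The keratin pool as a whole was almost entirely the hepatocyte pair. Of the 23 keratin genes in the table, 6 had a mean of at least 0.5 FPKM and 4 were listed at 0 in every library. Krt8 and Krt18 made up 99.3% to 99.4% of summed keratin FPKM in HepKO and 99.5% to 99.6% in Flox livers. The sum was 1996 ± 132 FPKM in HepKO and 843 ± 86.7 FPKM in Flox livers (SD, n = 3 each), or 0.418% ± 0.036 of all FPKM in HepKO and 0.184% ± 0.018 in Flox livers. Among the 18 keratins outside the set, only Krt5 and Krt10 were abundant enough to test, and neither passed. Krt5, a keratin of basal epithelia, averaged 1.36 FPKM in HepKO and 1.07 FPKM in Flox livers (limma adjusted p = 0.56), and Krt10, a keratin of the upper epidermis, 0.561 FPKM in HepKO and 0.918 FPKM in Flox livers (limma adjusted p = 0.20).

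Sox9, which encodes a transcription factor of bile duct development and of duct-like hepatocytes (ENSMUSG00000000567, chromosome 11, 112782224 to 112787760), had 14.9, 12.2 and 12.1 FPKM in HepKO livers, against 2.22, 2.58 and 4.30 FPKM in Flox livers. Flox replicate 3 was the highest of its group and still well under every HepKO liver. The means were 13.1 ± 1.59 FPKM in HepKO and 3.03 ± 1.11 FPKM in Flox livers (SD, n = 3 each), a 4.31-fold difference (log2 fold change 1.83, SE 0.20, limma adjusted p = 0.0022). The fold was 3.81 without Flox replicate 1 and 5.45 without Flox replicate 3. Of 14 other SOX genes, 4 were tested, and Sox7, an endothelial family member, was higher, at 1.06 FPKM in HepKO and 0.365 FPKM in Flox livers (limma adjusted p = 0.029). The Sox7 call was kept when HepKO replicate 3 or Flox replicate 3 was left out. It was lost without any of the other libraries (limma adjusted p of 0.068 to 0.087). Sox7 reached the filter mean of 0.5 FPKM only through HepKO livers. The more abundant Sox18 went the other way without overlap, with 1.86 FPKM in HepKO and 3.36 FPKM in Flox livers, and did not pass (limma adjusted p = 0.11). Sox12 and Sox13 overlapped and did not pass. Sox12, Sox13 and Sox18 were named after their values were seen.

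Epcam, a homophilic adhesion molecule of bile duct and progenitor epithelium (ENSMUSG00000045394, chromosome 17, 87635979 to 87651106), had 0.593, 0.970 and 0.539 FPKM in HepKO livers, against 0.519, 0.663 and 0.745 FPKM in Flox livers. The groups overlapped, although HepKO replicate 2 was above every Flox library and Flox replicate 1 was below every HepKO library. The difference of 0.04 on the log2 scale (limma 95% interval -0.27 to 0.36) was not called (limma adjusted p = 0.85), and its sign turned without Flox replicate 1 (-0.011) or HepKO replicate 2 (-0.067). Krt7, Krt19 and Epcam were each highest, among HepKO livers, in replicate 2. In Flox livers, Krt7 and Krt19 were highest in replicate 1 and Epcam was lowest there.

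Cd24a, which encodes a small lipid-anchored surface glycoprotein of progenitor cells, also found on neutrophils, B cells and red cell precursors (ENSMUSG00000047139, chromosome 10, 43578284 to 43584265), had 4.51, 3.87 and 2.88 FPKM in HepKO livers, against 0.889, 0.631 and 0.712 FPKM in Flox livers. All HepKO livers were above all Flox livers. The means were 3.75 ± 0.82 FPKM in HepKO and 0.744 ± 0.132 FPKM in Flox livers (SD, n = 3 each), a 5.05-fold difference (log2 fold change 1.43, SE 0.15, limma adjusted p = 0.0020). Neutrophil and erythroid markers moved the same way. Retnlg, a neutrophil gene for a secreted protein, had 21.5 FPKM in HepKO and 1.61 FPKM in Flox livers, and S100a9, a calcium-binding neutrophil protein gene, had 73.2 FPKM in HepKO and 8.56 FPKM in Flox livers. The alpha globin genes Hba-a1 and Hba-a2 had 249 and 233 FPKM in HepKO and 43.7 and 42.6 FPKM in Flox livers. Lymphocyte markers summed to 0.275 to 0.904 FPKM in HepKO and 0.148 to 1.28 FPKM in Flox livers, with Ms4a1 listed at 0 throughout. The part of these cells in the Cd24a difference was not tested, and in whole liver more cells of a type and more RNA per cell cannot be told apart.

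Spp1, which encodes osteopontin, a secreted ligand of integrins and CD44 made by bile duct cells and by macrophages (ENSMUSG00000029304, chromosome 5, 104435118 to 104441050), had 48.9, 49.0 and 36.8 FPKM in HepKO livers, against 30.8, 21.0 and 29.0 FPKM in Flox livers. The groups did not overlap, although HepKO replicate 3 lay nearer to Flox replicate 1 than to the other HepKO livers. The means were 44.9 ± 7.01 FPKM in HepKO and 26.9 ± 5.24 FPKM in Flox livers (SD, n = 3 each), a 1.67-fold difference (log2 fold change 0.72, SE 0.18, limma adjusted p = 0.037). This was the least secure call of the set. Leaving out HepKO replicate 1 gave a limma adjusted p of 0.10, HepKO replicate 2 gave 0.11, Flox replicate 2 gave 0.089 and Flox replicate 3 gave 0.074, each above 0.05.

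Macrophage markers, given here because macrophages also make osteopontin, summed to 219 to 269 FPKM in HepKO and 134 to 197 FPKM in Flox livers. Of 16 tested markers of 20, 5 were higher, 1 was lower and 10 did not pass. The pattern recognition genes Cd14 and Marco had 25.7 and 39.8 FPKM in HepKO and 6.90 and 13.0 FPKM in Flox livers. The integrin gene Itgam had 2.73 FPKM in HepKO and 0.283 FPKM in Flox livers. Itgam and Ccr2, both called higher, reached the filter mean of 0.5 FPKM only through HepKO livers. The lysozyme gene Lyz2 had 50.3 FPKM in HepKO and 25.3 FPKM in Flox livers. Cd68, a lysosomal marker, did not pass, with 41.3 FPKM in HepKO and 35.7 FPKM in Flox livers. Others that overlapped and did not pass went in both directions. Clec4f and Adgre1 had 8.60 and 1.13 FPKM in HepKO and 12.6 and 1.48 FPKM in Flox livers. Vsig4 and C1qa had 8.96 and 25.4 FPKM in HepKO and 7.68 and 18.9 FPKM in Flox livers. Gpnmb and Trem2, markers of lipid-laden macrophages in which Spp1 is often found, were at 0.329 and 0.334 FPKM in HepKO and 1.37 and 0.250 FPKM in Flox livers. Gpnmb was the lower marker (limma adjusted p = 0.025), a call kept only without Flox replicate 1 (0.0062), the other limma adjusted p being 0.058 to 0.085. Clec4f, Adgre1, Vsig4, C1qa, Gpnmb and Trem2 were picked after their values were seen. The part of macrophages in the Spp1 difference was not tested.

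**Figure D3:**
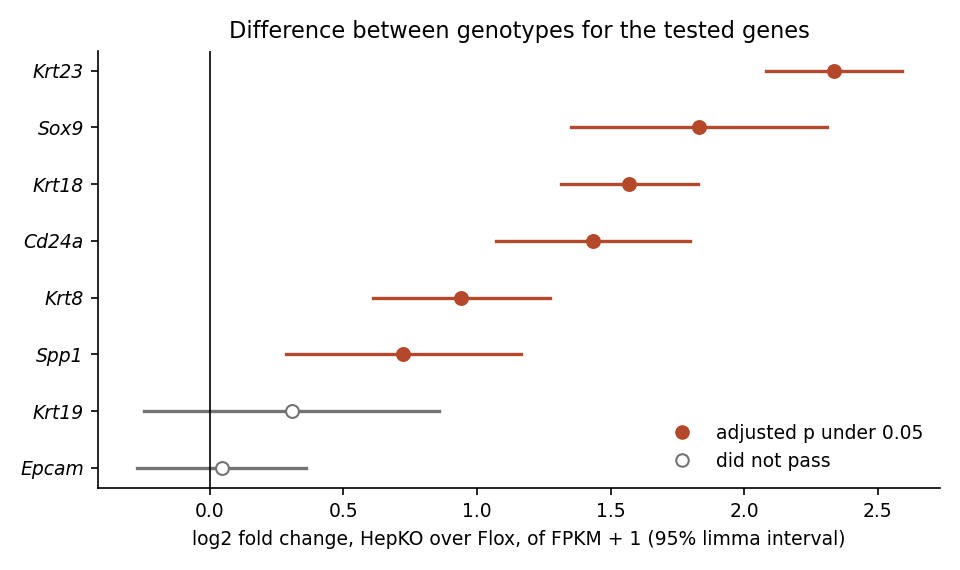
Log2 fold change of FPKM + 1, HepKO over Flox (horizontal axis), of the 8 tested genes, with 95% limma intervals. Filled points passed at adjusted p 0.05 and open points did not. Krt23 has the largest value, 2.33, and the intervals of Krt19 and Epcam include 0.

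Placed in order of level, the set ran from Krt18 through Krt8, Spp1, Sox9, Krt23, Cd24a, Krt19 and Epcam to Krt7 in HepKO livers, by mean FPKM. There the ranges of Krt18 and Krt8 overlapped, as did those of Krt19 and Epcam. In Flox livers the order was Krt8, Krt18, Spp1, Sox9, Krt23, Krt19, Cd24a, Epcam and Krt7. Krt23, Krt19, Cd24a and Epcam all lay between 0.340 and 1.28 FPKM in Flox livers. There the ranges of Krt19 and Cd24a overlapped each other and those of Krt23 and Epcam. Krt23, at 0.753 FPKM or more, lay narrowly above Epcam, at 0.745 FPKM or less. In HepKO livers Krt23 and Cd24a stood above Krt19 and Epcam without overlap.

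In the authors' deposited table, the q-values of the 6 genes called here ran from 3.89e-20 for Krt23 to 0.0032 for Spp1. The same table gave q-values of 0.28 for Krt7, 0.49 for Krt19 and 0.84 for Epcam.

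Other markers of bile duct epithelium gave a mixed picture. Of 23 listed, 10 were abundant enough to test, of which 1 was higher, 3 were lower and 6 did not pass. Their median log2 fold change was 0.11. Over all tested genes, 9.33% were higher and 11% lower, with a median of -0.06. The adhesion gene Cdh1 was higher, with 17.1 ± 2.04 FPKM in HepKO and 9.58 ± 2.06 FPKM in Flox livers (SD, n = 3 each; limma adjusted p = 0.020). The bile acid uptake transporter gene Slc10a2, with 4.70 FPKM in HepKO and 8.92 FPKM in Flox livers (limma adjusted p = 0.015), and the protease inhibitor gene Spint2, with 13.9 FPKM in HepKO and 18.9 FPKM in Flox livers (limma adjusted p = 0.026), were lower.

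The most abundant of these markers, Clu, had 468 FPKM in HepKO and 478 FPKM in Flox livers, and Tm4sf4 had 167 FPKM in HepKO and 111 FPKM in Flox livers (limma adjusted p of 0.93 and 0.054). Both lay far above Krt7, Krt19 and Epcam, which were at or under 1.63 FPKM in every library. Which cells made the Clu, Tm4sf4 and Cdh1 transcripts was not tested. The more exclusive duct genes were near the floor. Sctr, the secretin receptor gene, was listed at 0 in all 6 libraries, the chloride channel gene Cftr averaged 0.036 FPKM in HepKO and 0.0050 FPKM in Flox livers, and Pkhd1 averaged 0.151 FPKM in each genotype. Tm4sf4 passed as higher without HepKO replicate 1 (limma adjusted p = 0.030) or Flox replicate 1 (0.048), after median-ratio rescaling (0.031) and after rescaling to a common sum with mitochondrial genes and the top 50 genes kept out of it (0.022). Calls were also lost. Without Flox replicate 2, those of Cdh1, Spint2 and Slc10a2 were lost (limma adjusted p of 0.066, 0.090 and 0.051). Cdh1 was also lost without HepKO replicate 2 (0.055) or HepKO replicate 3 (0.052), and Slc10a2 without HepKO replicate 1 (0.051). Spint2 kept its call only without Flox replicate 1 (0.040), its other limma adjusted p being 0.052 to 0.090.

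Of 12 genes of fetal liver and progenitor activation, 6 were tested, and 4 were higher, none was lower and 2 did not pass, with a median log2 fold change of 0.74. None was lower at an unadjusted p under 0.05 either. Afp, the fetal albumin-like protein gene, had 4.55 ± 1.01 FPKM in HepKO and 1.31 ± 0.30 FPKM in Flox livers (SD, n = 3 each; log2 fold change 1.26, limma adjusted p = 0.0046). Tnfrsf12a, which encodes the receptor for the progenitor mitogen TWEAK, had 120.3 ± 7.28 FPKM in HepKO and 46.3 ± 8.38 FPKM in Flox livers (SD, n = 3 each; log2 fold change 1.37, limma adjusted p = 0.0019). Its ligand gene Tnfsf12 had 10.6 FPKM in HepKO and 6.17 FPKM in Flox livers (limma adjusted p = 0.030), a call kept only without HepKO replicate 2 (0.038), the other limma adjusted p being 0.052 to 0.087. Cd44, the hyaluronan and osteopontin receptor gene, had 2.20 FPKM in HepKO and 0.856 FPKM in Flox livers (limma adjusted p = 0.0040). The fetal genes Dlk1 and Igf2 averaged under 0.1 FPKM in both genotypes, and H19 had 1.23 FPKM in HepKO and 1.05 FPKM in Flox livers without passing. The genes Dlk1, Igf2 and H19 were picked after their values were seen.

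Among 18 genes of the filaments' partners and of Mallory bodies, the keratin aggregates of injured hepatocytes, 16 were tested, and 5 were higher, 4 were lower and 7 did not pass, with a median log2 fold change of 0.17. Tgm2, a protein cross-linking enzyme gene, had 103 ± 17.0 FPKM in HepKO and 30.1 ± 3.23 FPKM in Flox livers (SD, n = 3 each; log2 fold change 1.74, limma adjusted p = 0.0012). Vim, the mesenchymal filament gene, had 10.8 ± 0.35 FPKM in HepKO and 3.66 ± 0.29 FPKM in Flox livers (SD, n = 3 each; log2 fold change 1.34, limma adjusted p = 0.00063). Both calls held whichever library was left out. Hspb1, a small heat shock protein gene, had 105 FPKM in HepKO and 237 FPKM in Flox livers (limma adjusted p = 0.038), a call kept only without HepKO replicate 3 (0.046) or Flox replicate 2 (0.012), the other limma adjusted p being 0.088 to 0.11. Sqstm1, which encodes the Mallory body component p62 and was the most abundant gene of the list, had 512 FPKM in HepKO and 551 FPKM in Flox livers and did not pass (limma adjusted p = 0.71).

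Dsg2, a desmosomal cadherin gene, was also lower, with 4.86, 3.12 and 3.31 FPKM in HepKO livers, against 7.00, 11.4 and 9.77 FPKM in Flox livers (log2 fold change -1.12, SE 0.21, limma adjusted p = 0.013). Every HepKO liver was below every Flox liver, and the call was lost without HepKO replicate 2 (limma adjusted p = 0.051). The other called genes of the list went in both directions and were named after their values were seen. The desmosome genes Dsp and Dsc2 were lower, with 8.17 and 4.10 FPKM in HepKO and 12.2 and 5.89 FPKM in Flox livers (limma adjusted p of 0.016 and 0.030). The cytolinker genes Plec and Eppk1 were higher, with 8.58 and 1.78 FPKM in HepKO and 5.77 and 0.920 FPKM in Flox livers (limma adjusted p of 0.032 and 0.024), as was the small heat shock protein gene Cryab, with 7.07 FPKM in HepKO and 3.17 FPKM in Flox livers (limma adjusted p = 0.037). Each of these calls was lost without 1 or more libraries. The limma adjusted p reached 0.064 for Dsp (without HepKO replicate 2, and 0.055 without Flox replicate 3), 0.095 for Dsc2, 0.090 for Plec, 0.080 for Eppk1 and 0.11 for Cryab. Plec was lost whichever library was left out, Dsc2 and Eppk1 when any library other than HepKO replicate 3 was left out, and Cryab when any library other than HepKO replicate 3 and Flox replicate 2 was.

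Of the Notch pathway, which directs bile duct fate upstream of SOX9, 10 of 15 genes were tested. Of these, 1 was higher, none was lower (0 also at an unadjusted p under 0.05) and 9 did not pass. Over all tested genes, 9.33% were higher and 11% lower. The median log2 fold change was 0.14 in the list and -0.06 over all tested genes. Jag1, the ligand gene, had 1.51 FPKM in HepKO and 0.704 FPKM in Flox livers (limma adjusted p = 0.044), a call kept in only 1 fit with a library left out, that without HepKO replicate 2 (0.049), the others giving 0.077 to 0.12, and lost after rescaling libraries to a common sum (0.061). The target gene Hes1 had 11.6 ± 1.92 FPKM in HepKO and 8.12 ± 3.38 FPKM in Flox livers (SD, n = 3 each; limma adjusted p = 0.26), and the receptor gene Notch2 had 3.13 FPKM in HepKO and 3.26 FPKM in Flox livers (limma adjusted p = 0.88).

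Of 11 osteopontin receptor genes, 7 were tested, and Itgb3 and Cd44 were higher, none was lower and 5 did not pass, with a median log2 fold change of 0.27. Itgb3, an integrin subunit gene, had 3.37 to 4.60 FPKM in HepKO livers and at most 1.69 FPKM in Flox livers (log2 fold change 1.00, limma adjusted p = 0.0034). The more abundant subunit gene Itgb1 had 51.3 FPKM in HepKO and 42.3 FPKM in Flox livers, and Itgb5 had 10.1 FPKM in HepKO and 13.6 FPKM in Flox livers. Neither passed (limma adjusted p of 0.16 and 0.055), and Itgb5 was the 1 gene of the list lower at an unadjusted p under 0.05. Of 11 genes of EPCAM and CD24 partners, 8 were tested, and 2 were higher, 6 did not pass and none was lower, also at an unadjusted p under 0.05. Fgr, a SRC family kinase gene, was higher, with 1.80 FPKM in HepKO and 0.739 FPKM in Flox livers (limma adjusted p = 0.031). Its call was kept only without HepKO replicate 3 (0.013), the others giving 0.053 to 0.097. The EPCAM partner gene Cldn7 was too low to test.

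Further marker lists concern cells that make these keratins or lie near them. Mesothelial cells of the liver surface also make keratins, and their markers summed to 1.45 to 2.12 FPKM in HepKO and 1.43 to 1.89 FPKM in Flox livers, with Msln at 0.624 FPKM in HepKO and 0.639 FPKM in Flox livers. Of 10 stellate cell markers, 1 was higher and 1 lower, against 9.33% higher and 11% lower over all tested genes. Acta2, the contractile actin gene, had 7.16 FPKM in HepKO and 2.81 FPKM in Flox livers (limma adjusted p = 0.012), and Ngfr had 1.03 FPKM in HepKO and 1.69 FPKM in Flox livers (limma adjusted p = 0.040), a call lost whichever library was left out (limma adjusted p of 0.054 to 0.12). Exocrine pancreas markers summed to at most 0.059 FPKM in HepKO and 0.025 FPKM in Flox livers.

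Hepatocyte markers summed to 40011 to 44546 FPKM in HepKO and 35970 to 42057 FPKM in Flox livers. Of 11 tested, 2 were higher, 3 were lower and 6 did not pass. Cps1, a urea cycle gene, and Cyp2f2, a periportal P450 gene, had 143 and 82.5 FPKM in HepKO and 344 and 168 FPKM in Flox livers, while Fgb, a fibrinogen gene, and Glul, the glutamine synthetase gene, had 4010.2 and 18.4 FPKM in HepKO and 2288 and 8.68 FPKM in Flox livers. Alb had 26922 FPKM in HepKO and 25956 FPKM in Flox livers (limma adjusted p = 0.79). The part of a change in the mix of cells in any of these differences was not tested.

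**Figure D4:**
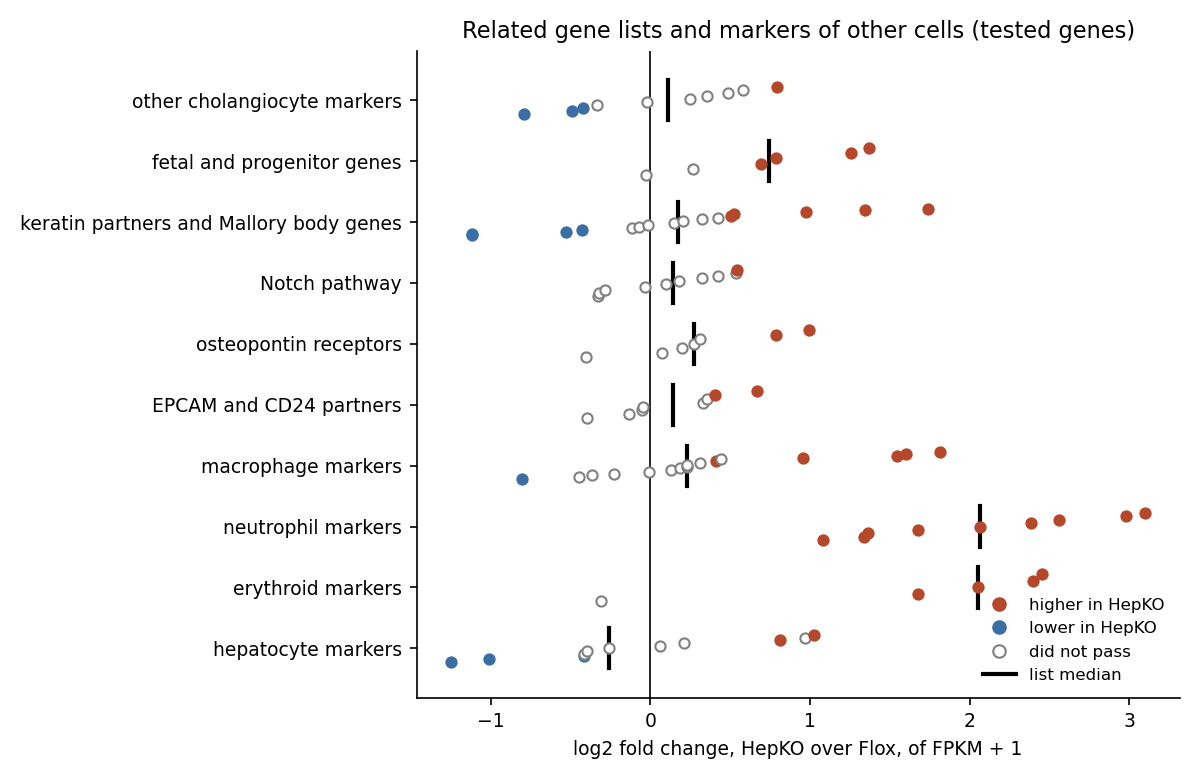
Log2 fold change of FPKM + 1, HepKO over Flox (horizontal axis), of the tested genes of 10 lists (rows). Red points were higher and blue points lower at limma adjusted p 0.05, open points did not pass, and black lines are list medians. The medians are 0.11 for other cholangiocyte markers, 0.74 for fetal and progenitor genes and 2.06 for neutrophil markers.

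Genes with the most similar profiles were found by the root mean square difference of log2(FPKM + 1), each gene centred on its own mean, over the 6 libraries. For Krt18 these were the MAPK phosphatase gene Dusp6 (0.074) and the EGF-type ligand gene Btc (0.078), and for Krt8 the noncoding RNA gene Snhg5 (0.067) and the splicing factor gene Hnrnpa1 (0.083). For Krt23 they were the early response genes Zfp36 (0.10) and Fosb (0.11), and for Sox9 the glycolytic gene Pkm (0.12) and the beta globin gene Hbb-bt (0.18). For Cd24a Lilrb4a (0.065) is given, and for Spp1 they were Tgfb1 (0.088) and Dcn (0.091). For Krt19 they were Elovl6 (0.10) and Chkb (0.12), and for Epcam, whose profile was nearly flat, Mertk and Usp28 (0.052 each). Btc had 2.47 FPKM in HepKO and 0.149 FPKM in Flox livers, and Zfp36 had 151 FPKM in HepKO and 27.5 FPKM in Flox livers. The values are distances on the log2 scale and carry no test.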

How the data were processed

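RNA was measured by poly(A)-selected, paired-end sequencing of 6 whole-liver libraries, 3 HepKO and 3 Flox. Per the file headers, the deposited values are FPKM per library, as computed by the authors. StringTie 1.3.4d, HISAT2 2.0.4 and cutadapt 1.9, as well as edgeR and DESeq2, appear in the submitters' processing notes, with no role stated. The authors also deposited a p-value and a q-value per gene. No source used here gives the genome build, but 25619 of 28476 gene identifiers have the same coordinates in GENCODE M21, so positions are given as GRCm38 (for Krt19 and Epcam only the end differs). Strand use in counting is not given.

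FPKM are not counts, so the 12712 genes averaging 0.5 FPKM or more were tested with limma 3.58.1 (R 4.3.3) on log2(FPKM + 1), genotype as the only term, with the variance trend, two-sided, adjusted by Benjamini-Hochberg at 0.05. Folds are ratios of mean FPKM. Depth per library is unknown, so no counting interval is given. Figures were drawn with matplotlib 3.10.9.

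The genes of the set and all lists were chosen with earlier results of these data known. Named from each list were the 4 largest called changes and the 2 most abundant genes, besides testable keratins, called SOX genes and the 2 nearest profiles per tested gene (among genes averaging 1 FPKM or more, without predicted and mitochondrial genes). Alternatives were other pseudocounts, filters, scalings, limma settings, a stricter threshold, fits without 1 library and a replicate block. Symbols Camp, Ahsp, Cpa1, Pnlip and Tf of the lists were not found in the table. Krt7 overlaps an antisense gene listed at 0, and Krt8 and Spp1 overlap genes under 0.26 FPKM. Scaling to a common sum moved the median of all genes by under 0.1 (log2). Some genes that the naming rule picks are not reported here. Promoters were found for 6 of the 9 genes. Pairing by replicate number was examined and is described with the alternatives.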

Additional observations from a re-analysis of the deposited data

How the results depend on the processing

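Of 136 log2 fold changes of the set under other settings, 127 kept their direction and side of the threshold, 7 of Spp1 lost the call and 2 of Epcam changed sign. Krt8, Krt18, Krt23, Sox9 and Cd24a kept theirs in all 17 alternatives, and 5 or 6 of the set were higher and 0 lower whichever library was left out. Besides the fits without a library, Spp1 lost its call with no filter on low values (limma adjusted p = 0.081) and at a threshold of 0.01. Over all genes, 1186 were higher and 1397 lower. At a threshold of 0.01 these were 508 and 431, with no filter 899 were lower, and without 1 library 669 to 1035 were higher and 612 to 1303 lower. The mean Krt8 to Krt18 ratio was 0.821 to 0.935 in HepKO and 1.31 to 1.44 in Flox livers without 1 library.

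With the replicate block, 776 genes were higher and 775 lower, and Spp1 lost its call (limma adjusted p = 0.077). Deviations of same-numbered HepKO and Flox libraries correlated at 0.0029, 0.0021 and -0.025 across genes, and libraries did not correlate best with their own number. No pairing by number was seen, and the labels do not say whether same-numbered libraries share more than the number.

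Signs changed for some genes that did not pass. Without 1 library, log2 fold changes ran from -0.050 to 0.12 for Alb, -0.093 to 0.096 for Clu, -0.29 to 0.091 for Des, -0.067 to 0.11 for Epcam, -0.32 to 0.47 for Hmgb1, -0.14 to 0.043 for Msln, -0.15 to 0.050 for Notch2 and -0.28 to 0.0010 for Sqstm1. After median-ratio rescaling they were 0.044 for Clu, 0.0044 for Hmgb1, 0.0034 for Msln and 0.015 for Notch2. After rescaling to a common sum Alb had -0.0014, and, with mitochondrial genes and the top 50 genes kept out of that sum, Clu had 0.040, Msln 0.00011 and Notch2 0.012. The cause was not tested. Depth per library is unknown, and genes under about 1 FPKM, such as Krt7 and Epcam, are the least certain.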
